A study of Rattus norvegicus with 6 samples.

Results

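The genes described here encode 9 enzymes: Phgdh, Psat1, Psph, Shmt1, Shmt2, Mthfd2, Pycr1, Aldh18a1 and Asns. All but Mthfd2, an enzyme of folate, take part in building the non-essential amino acids serine, glycine, proline and asparagine. The 9 were chosen by name, with earlier results of these data known, and each has a single row in the deposited table of 33300 genes. All 9 of 9 reached the mean level at which genes were tested. RNA sequencing was done on rat tendon stem/progenitor cells, the resident precursors of tendon, after 7 days of culture. The treated group (3 libraries) received 500 uM of N-acetyl-L-cysteine, here NAC, in F12 medium, and the Control group (3 libraries) F12 medium alone. NAC is a thiol antioxidant that cells can use as a source of cysteine. The labels class both groups as mesenchymal stem cells from tendon under tenogenic differentiation. They name no strain, age, sex or altered allele, and no pooling, and do not state whether libraries that share a group stem from different animals or cultures. All p-values therefore measure only the spread between these samples, which may be technical.

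Serine is made from a glycolytic intermediate by Phgdh, Psat1 and Psph in turn. Serine hydroxymethyltransferases turn it into glycine and hand a carbon unit to folate, which Mthfd2 oxidizes in mitochondria. Proline is made from glutamate by Aldh18a1 and a pyrroline-5-carboxylate reductase such as Pycr1, and asparagine from aspartate by Asns. Glycine and proline are the main building blocks of collagen, the chief protein of tendon. In mammalian cells the transcription factor ATF4 is known to induce most of these enzymes when amino acids are short.

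The libraries held 12487215 to 14941949 reads each, recovered from the deposited FPKM values (fragments scaled by gene length and by sequencing depth, so that levels can be compared between genes). All 8 tendon cell markers were present, with summed levels of 11769 to 12439 FPKM in NAC and 7902 to 8020 FPKM in Control. Of them 2 rose, Col1a1 and Dcn, which carry most of that sum, and their part in the results below was not tested. Col1a1 lay at 5223 to 5723 FPKM in NAC and 2589 to 2818 FPKM in Control, and Scx, a tendon transcription factor, at 11.2 to 12.4 FPKM in NAC and 11.4 to 13.9 FPKM in Control. Macrophage markers summed to 18.5 to 21.0 FPKM in NAC and 18.0 to 21.6 FPKM in Control, with 2 of 8, Cd14 and Cd68, at a mean of at least 1 FPKM, and Ptprc, C1qa and C1qb were listed at 0 in all 6 libraries. The 7 endothelial markers found summed to at most 0.769 FPKM in NAC and 0.75 FPKM in Control, and the 8 skeletal muscle markers to 7.18 to 8.33 FPKM in NAC and 6.64 to 7.07 FPKM in Control. The library Control 2 stood apart from the other Control libraries: the chi-square of recovered reads per degree of freedom was 8.71 and 8.54 for its pairs and 3.49 for the pair without it. It was also the highest Control library for 8 of the 9 enzymes, against 53.1% of the 64 tested pathway genes described below and 37.3% of all tested genes. Without it the log2 fold change was 0.73 for Psat1, 0.98 for Pycr1, 0.45 for Phgdh, -0.10 for Psph and 0.90 for Aldh18a1. It was 0.11 for Shmt1, 0.14 for Shmt2, 0.37 for Mthfd2 and 0.11 for Asns, and the values with all 6 libraries stand with each gene below.

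Of the 9 enzymes 2 rose with NAC, Pycr1 of proline synthesis and Psat1 of serine synthesis. Pycr1 averaged 20.6 ± 2.33 FPKM in NAC and 11.0 ± 1.86 FPKM in Control, and Psat1 4.42 ± 0.351 FPKM in NAC and 2.38 ± 0.234 FPKM in Control (SD, n = 3 each). The other 7 were not called, and 0 were called lower. The test was limma on log2(FPKM + 1), with Benjamini-Hochberg adjustment over all 12733 genes with a mean of at least 1 FPKM, and a gene was called where the adjusted p lay below 0.05. On this scale a fold change understates that of genes of low level. Of all tested genes 6.08% were called higher and 2.72% lower, 8.8% in either direction. At an unadjusted p under 0.05, 4 enzymes were higher and 0 lower, where 26.3% of all tested genes passed in either direction, and limma voom on the recovered reads called 2 higher and 0 lower. The median log2 fold change of the 9 was 0.27, beside -0.0063 for all tested genes, and 8 of the 9 lay above that of all genes. All 3 NAC libraries lay above all 3 Control libraries for 3 enzymes, Phgdh, Psat1 and Pycr1, a separation seen in 16.7% of all tested genes. Since the 9 were chosen with earlier results of these data known, the shares of all genes describe the set and do not test it. In bulk RNA, fewer cells of a type and less RNA per cell cannot be told apart.

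**Figure D1:**
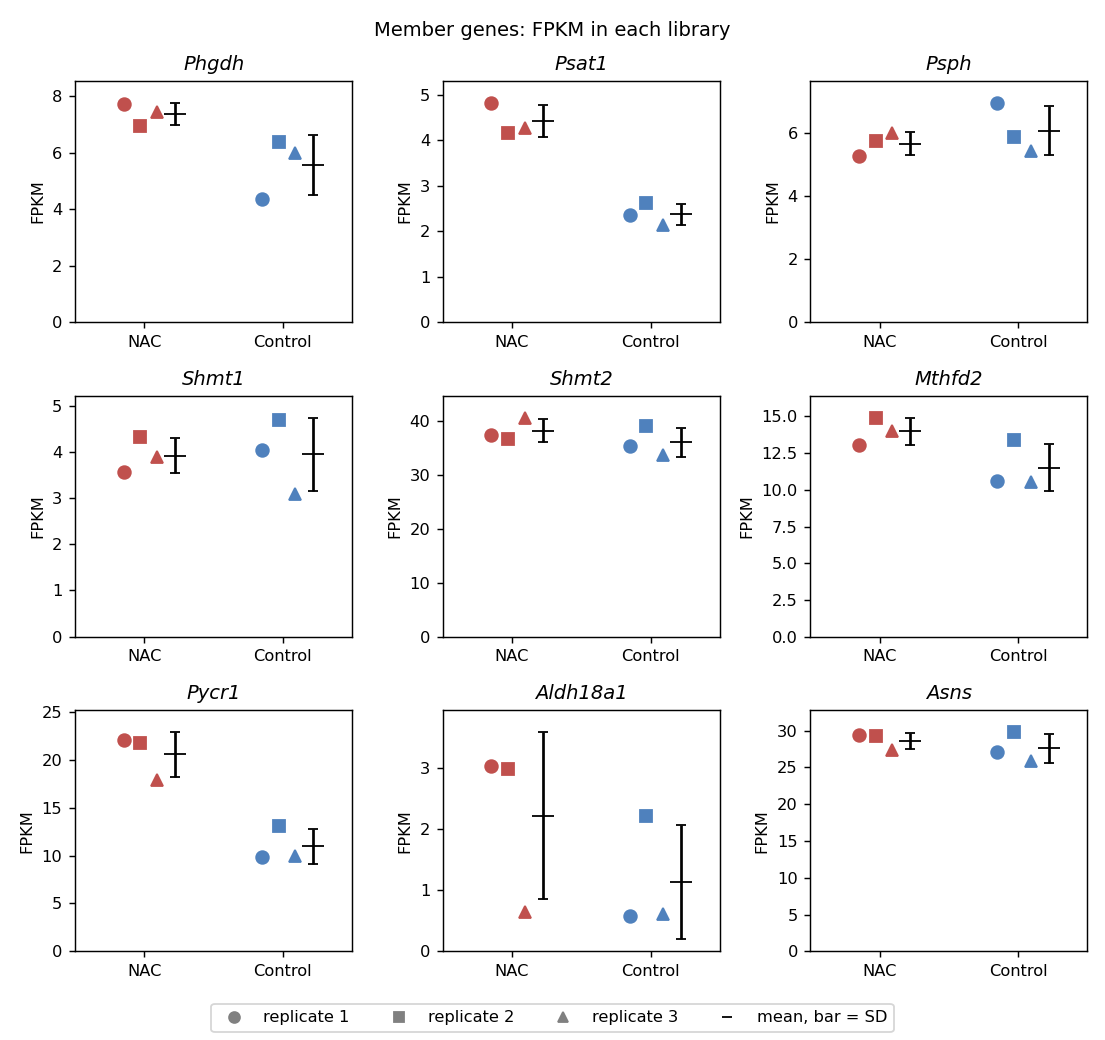
FPKM (vertical axes, each from 0) of the 9 enzymes in the 3 NAC and 3 Control libraries, with the marker shape giving the replicate and the black bar the mean and SD. Psat1 and Pycr1 show NAC libraries well clear of Control libraries, while Aldh18a1 splits within both groups.

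**Figure D2:**
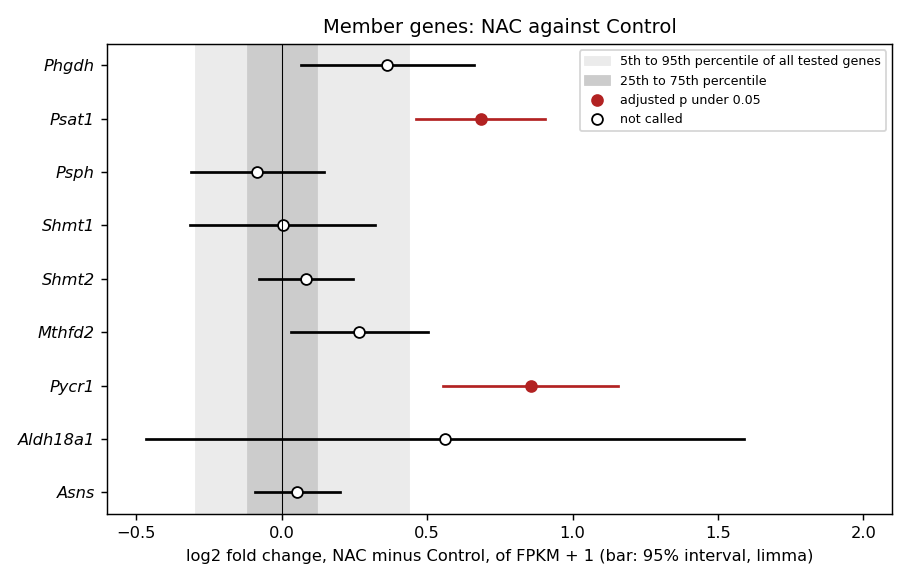
Log2 fold change (NAC minus Control, horizontal axis) of each enzyme with its 95% interval from limma, filled where the adjusted p was under 0.05. The grey bands span the middle of all tested genes, and the points of Psat1 (0.68), Pycr1 (0.86) and Aldh18a1 (0.56) lie to the right of them, the last with an interval that crosses 0.

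Of the 3 steps of serine synthesis, 1 was called, that of Psat1. Coordinates of genes are those of the deposited table, whose build is not stated. Phgdh (ENSRNOG00000019328; chromosome 2, 200484246 to 200513564), which oxidizes 3-phosphoglycerate in the first step, had 7.72, 6.94 and 7.44 FPKM in NAC, against 4.35, 6.36 and 5.97 FPKM in Control. The groups did not overlap, but Control 1 was far below the other Control libraries. Its log2 fold change was 0.36 ± 0.125 (SE, 95% interval 0.065 to 0.66), and it did not pass over all genes (limma adjusted p = 0.125). Without Control 1 its log2 fold change was 0.22. Psat1 (ENSRNOG00000013971; chromosome 1, 233124092 to 233145941), the aminotransferase of the second step, had 4.82, 4.17 and 4.27 FPKM in NAC, against 2.37, 2.61 and 2.15 FPKM in Control. Every NAC library was well above every Control library. These levels rest on 152 to 185 reads per NAC library and 89 to 94 reads per Control library. Psat1 rose by 0.68 ± 0.0935 (log2, SE; limma adjusted p = 0.00930), a ratio of mean FPKM of 1.86. Psph (ENSRNOG00000000925; chromosome 12, 30514050 to 30526561), the phosphatase that releases serine, had 5.27, 5.74 and 6.0 FPKM in NAC, against 6.97, 5.88 and 5.43 FPKM in Control. The groups overlapped, and the log2 fold change was -0.084 ± 0.0962 (SE, 95% interval -0.31 to 0.15, limma adjusted p = 0.626).

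The RNA of Psat1 was also set against that of its pathway neighbours in the same library. The level of Psat1 was 0.625, 0.601 and 0.574 of that of Phgdh in NAC, against 0.544, 0.411 and 0.360 in Control. Relative to Psph it was 0.915, 0.726 and 0.712 in NAC, against 0.339, 0.445 and 0.395 in Control. Neither ratio overlapped between groups, and no test was run on them because they reuse the values above. The ratios of Phgdh to Psph and of Shmt2 to Mthfd2 did not overlap between groups either, while that of Pycr1 to Aldh18a1 did. For Shmt2 to Mthfd2 the gap was slight, 2.91 in NAC 3 against 2.92 in Control 2. The levels of single genes separated upward in 16.7% and downward in 15.9% of all tested genes, and the share among ratios was not counted. Psat1 kept its call in every alternative that tested it, between 0.55 scaled to library totals and 0.90 with voom, although its adjusted p reached 0.0447 without NAC 1 (range over all alternatives 0.00165 to 0.0447). Among named tested genes, the 3 whose centred log2 levels lay closest to those of Psat1 over the 6 libraries were Mybl2, Kntc1 and Lgals3bp. Their root mean square differences were 0.036, 0.045 and 0.057. Mybl2 had 2.92, 2.62 and 2.85 FPKM in NAC, against 1.33, 1.57 and 1.18 FPKM in Control.

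The enzymes that pass serine on to folate were not called. Shmt2 (ENSRNOG00000008106; chromosome 7, 70824715 to 70829815), the mitochondrial serine hydroxymethyltransferase and the most abundant of the 9, had 37.4, 36.6 and 40.7 FPKM in NAC, against 35.4, 39.1 and 33.7 FPKM in Control. Shmt1 (ENSRNOG00000005275; chromosome 10, 47031050 to 47059216), its cytosolic counterpart, had 3.56, 4.32 and 3.88 FPKM in NAC, against 4.05, 4.68 and 3.10 FPKM in Control. Both overlapped between groups. The log2 fold change was 0.083 ± 0.0676 for Shmt2 (SE, 95% interval -0.078 to 0.24, limma adjusted p = 0.482) and 0.0033 ± 0.134 for Shmt1 (95% interval -0.32 to 0.32, limma adjusted p = 0.991). The mitochondrial form supplied 90.7 ± 1.06% of the summed Shmt1 and Shmt2 FPKM in NAC and 90.2 ± 1.21% in Control (SD, n = 3 each; exact permutation test, two-sided, p = 0.90, and 0.90 adjusted over the 3 isozyme shares tested). With 3 against 3 libraries this test cannot give a p below 0.10, so no share could pass 0.05.

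Mthfd2 (ENSRNOG00000010833; chromosome 4, 115004448 to 115015965), the mitochondrial dehydrogenase and cyclohydrolase of folate, had 13.0, 14.9 and 14.0 FPKM in NAC, against 10.6, 13.4 and 10.5 FPKM in Control. Only Control 2 reached into the range of NAC. The log2 fold change was 0.27 ± 0.0991 (SE, 95% interval 0.030 to 0.50), short of the threshold (limma adjusted p = 0.149). Without Control 2 it was 0.37 and passed (adjusted p = 0.0313, range over all alternatives 0.0313 to 0.416), which brought the enzymes called higher to 3. Mthfd2 supplied 94.7 ± 0.338% of the summed FPKM of Mthfd2 and its paralog Mthfd2l in NAC and 93.7 ± 1.43% in Control (SD, n = 3 each; exact permutation test, two-sided, p = 0.40, and 0.60 adjusted over the 3 shares).

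Pycr1 had the highest log2 fold change of the 9. Pycr1 (ENSRNOG00000036682; chromosome 10, 109818177 to 109821807), a mitochondrial reductase that completes proline synthesis, had 22.1, 21.7 and 17.9 FPKM in NAC, against 9.86, 13.1 and 9.91 FPKM in Control. Every NAC library exceeded every Control library, with NAC 3 lowest in its group and Control 2 highest in its own. It rose by 0.86 ± 0.126 (log2, SE; limma adjusted p = 0.0119), a ratio of mean FPKM of 1.88, on 282 to 375 reads per NAC library and 170 to 209 reads per Control library. The call was lost without NAC 1 (0.80, adjusted p = 0.0532) or NAC 2 (0.81, adjusted p = 0.0581; range over all alternatives 0.00167 to 0.0581), which left 1 enzyme called. It remained at 0.69 when values were scaled to library totals, a scaling that moved the median of all tested genes to -0.16.

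Pycr3, listed under its older name Pycrl, encodes a reductase of the same family. It averaged 9.21 ± 0.813 FPKM in NAC and 8.66 ± 0.733 FPKM in Control (SD, n = 3 each) and was not called (limma adjusted p = 0.593). The sources used here do not state how reads that match several paralogs were assigned.

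Aldh18a1 was not called and varied widely between libraries of a group. Aldh18a1 (ENSRNOG00000015267; chromosome 1, 259057402 to 259089642) makes pyrroline-5-carboxylate from glutamate, the step before Pycr1. It had 3.03, 2.99 and 0.640 FPKM in NAC, against 0.585, 2.22 and 0.608 FPKM in Control. NAC 1, NAC 2 and Control 2 were thus high and the other 3 libraries low, and the groups overlapped. The low libraries held 28 to 31 reads and the high ones 98 to 143. The exact Poisson 95% intervals, which cover counting error only, did not meet: 0.425 to 0.924 FPKM for NAC 3, the highest of the low libraries, and 1.80 to 2.70 FPKM for Control 2, the lowest of the high ones. The spread between libraries (coefficient of variation) was 61.6% in NAC and 82.3% in Control, where counting alone gives 9.81% in NAC and 13.8% in Control. The log2 fold change was 0.56 ± 0.432 (SE, 95% interval -0.47 to 1.59, limma adjusted p = 0.458), and it ran from 0.34 without NAC 1 to 0.99 without NAC 3. NAC 1 and NAC 2 in their group and Control 2 in its own were also the high libraries of Pycr1 and of Asns, within a much narrower range. Control 2 was the highest Control library for 8 of the 9 enzymes. Chosen after these values were seen, the named genes with the closest profile over the 6 libraries were SNORA66, Mir194-1 and 7SK, all small RNA genes and none nearer than a root mean square log2 difference of 0.27. In the deposited coordinates 1 other gene overlaps Aldh18a1, a microRNA gene listed at 0 in all libraries.

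Asns (ENSRNOG00000007546; chromosome 4, 33743364 to 33761163), which makes asparagine from aspartate and glutamine, had 29.3, 29.2 and 27.3 FPKM in NAC, against 27.1, 29.8 and 25.9 FPKM in Control. The groups overlapped, and Control 2 held the highest value of all 6. The log2 fold change was 0.053 ± 0.0617 (SE, 95% interval -0.094 to 0.20, limma adjusted p = 0.630), on 767 to 887 reads per NAC library and 831 to 845 reads per Control library. The whole interval lay below the log2 fold changes of Psat1 and Pycr1, a difference that was not tested.

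**Figure D3:**
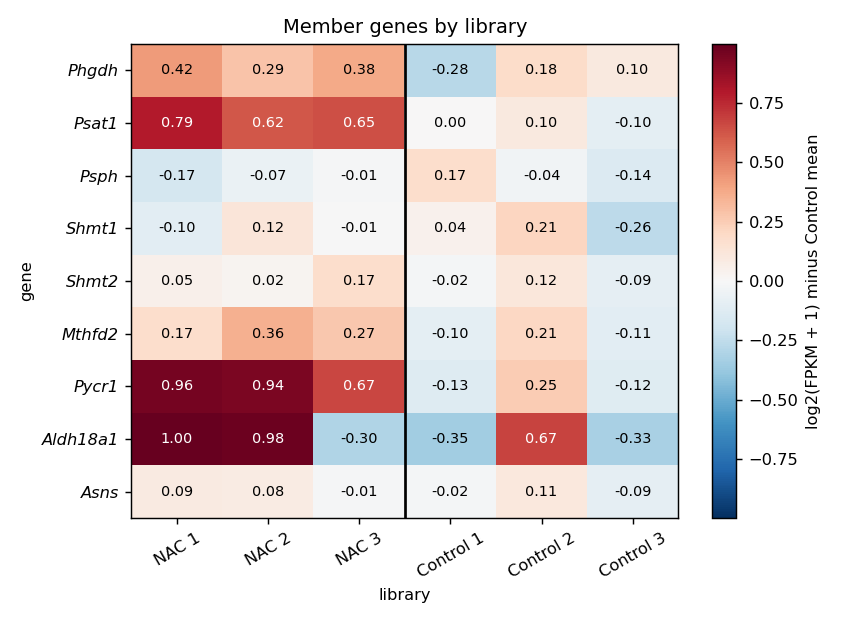
Log2(FPKM + 1) of each enzyme (rows) in each library (columns) minus the mean of the 3 Control libraries, red above and blue below it. Psat1 and Pycr1 are red in all 3 NAC libraries, Aldh18a1 in NAC 1, NAC 2 and Control 2 only, and the Control 2 column is above 0 for 8 of the 9 genes.

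The levels were ordered within each group. In NAC the mean FPKM ran from Shmt2 through Asns, Pycr1, Mthfd2, Phgdh, Psph, Psat1 and Shmt1 down to Aldh18a1. The ranges of neighbours in that order overlapped only for Psat1 and Shmt1. In Control it ran from Shmt2 through Asns, Mthfd2, Pycr1, Psph, Phgdh, Shmt1 and Psat1 down to Aldh18a1. There the ranges overlapped for Mthfd2 and Pycr1, for Psph and Phgdh, for Phgdh and Shmt1, and for Psat1 and Aldh18a1. Pycr1 thus stood clear above Mthfd2 in NAC (17.9 to 22.1 against 13.0 to 14.9 FPKM), while in Control the ranges of both met (9.86 to 13.1 against 10.5 to 13.4 FPKM).

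The sequence upstream of the gene start is shown for Pycr1 and Psat1, the genes that were called. Promoter windows of 300 bases (250 before to 50 after the start) from RefSeq, build GRCr8, matched 8 of the 9 genes by symbol. They were searched on both strands for the core of the C/EBP-ATF response element, which ATF4 binds with a C/EBP partner (TGATGNAA, N being any base). The 250 bases before the start are printed 5′ to 3′ on the gene's strand, with a match in capitals. Pycr1 lies on the minus strand at chr10:106420813-106421062 and Psat1 on the minus strand at chr1:222645409-222645658.
Pycr1: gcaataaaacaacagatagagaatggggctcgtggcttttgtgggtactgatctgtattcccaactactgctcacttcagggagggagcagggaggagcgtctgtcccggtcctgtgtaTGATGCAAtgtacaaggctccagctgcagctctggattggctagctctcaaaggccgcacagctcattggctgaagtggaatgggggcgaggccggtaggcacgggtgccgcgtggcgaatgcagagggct
Psat1: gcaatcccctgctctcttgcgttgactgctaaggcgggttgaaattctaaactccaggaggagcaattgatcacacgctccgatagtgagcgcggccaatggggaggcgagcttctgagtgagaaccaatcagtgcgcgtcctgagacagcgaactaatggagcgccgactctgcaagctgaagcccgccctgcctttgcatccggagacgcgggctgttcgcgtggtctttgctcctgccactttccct
The Pycr1 window held 1 match, at position -131 from the start, and it was the only one among the 8 windows, while 3.98% of all 33469 promoter windows held at least 1. The antioxidant response element core (TGACNNNGC) occurred in 1 of the 8 windows, that of Phgdh, and in 12.1% of all windows. The E-box (CACGTG) occurred in 1 of the 8, that of Shmt1, and in 6.42% of all windows. The cyclic AMP response element core (TGACGTNA) occurred in 0 of the 8 and in 3.25% of all windows. In these windows no match overlapped another. A match describes these letters and does not show binding.

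Around the 9 enzymes, 6 lists of pathway genes held 74 names, of which 72 had a row and 64 reached the tested level. Of these 64, 8 were called higher and 3 lower (limma), where 6.08% and 2.72% of all tested genes were. Their median log2 fold change was 0.071, beside -0.0063 for all tested genes. Scaled to library totals 2 were called higher and 17 lower, where 3.67% and 29.2% of all tested genes were. Without 1 library the count of higher genes ran from 2 without NAC 2 to 10 without Control 2. It was 4 without Control 1, 3 without Control 3, 3 without NAC 1 and 5 without NAC 3. The count of lower genes was 2 without Control 2 and 0 without any other library. The share of all tested genes called higher ran likewise from 2.07% without NAC 2 to 6.75% without Control 2. The share called lower ran from 0.40% without NAC 2 to 2.73% without Control 2.

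In folate metabolism 1 of 14 tested genes rose and 0 fell (2 and 0 at an unadjusted p under 0.05 and also by voom). This was Aldh1l2, a mitochondrial dehydrogenase of formyltetrahydrofolate, with 14.6, 15.4 and 14.0 FPKM in NAC, against 9.84, 9.02 and 10.4 FPKM in Control. It rose by 0.54 ± 0.0676 (log2, SE; limma adjusted p = 0.00649) and was called in every alternative (0.38 to 0.59). Sfxn1, a mitochondrial serine carrier chosen after its value was seen, averaged 48.0 ± 2.47 FPKM in NAC and 40.4 ± 2.46 FPKM in Control (SD, n = 3 each) and missed the threshold (0.24, limma adjusted p = 0.0521). In the glycine cleavage system 0 of 3 tested genes were called in either direction, also at an unadjusted p under 0.05 and by voom. Its most abundant genes, Dld and Gcsh, averaged 46.8 ± 2.26 and 13.5 ± 0.748 FPKM in NAC, and 49.2 ± 2.26 and 12.8 ± 1.92 FPKM in Control.

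In proline metabolism 2 of 5 tested genes rose and 0 fell (3 and 0 at an unadjusted p under 0.05 and also by voom). Oat, which makes pyrroline-5-carboxylate from ornithine, averaged 77.3 ± 3.93 FPKM in NAC and 63.1 ± 2.78 FPKM in Control (0.29, limma adjusted p = 0.0225). P4ha1, a subunit of the enzyme that hydroxylates proline in collagen, averaged 186 ± 8.02 FPKM in NAC and 154 ± 2.74 FPKM in Control (0.27, limma adjusted p = 0.0139). The Oat call was lost without Control 3, NAC 1 or NAC 2 (0.25 to 0.29) and that of P4ha1 without Control 1, NAC 1 or NAC 2 (0.23 to 0.27), and both with library totals (0.12 and 0.094) and quantile normalization (0.24 and 0.15).

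In glutamate and aspartate supply 2 of 13 tested genes rose and 0 fell (3 and 0 at an unadjusted p under 0.05, 2 and 0 by voom). Gls2, a mitochondrial glutaminase, averaged 10.7 ± 1.14 FPKM in NAC and 6.92 ± 0.401 FPKM in Control (0.57, limma adjusted p = 0.0124). Got1, the cytosolic aspartate aminotransferase, averaged 32.5 ± 1.497 FPKM in NAC and 26.1 ± 2.25 FPKM in Control (0.31, limma adjusted p = 0.0431). The Gls2 call was lost without Control 3 (0.53), and that of Got1 without any 1 library other than Control 2 (0.26 to 0.34), with library totals (0.14), with quantile normalization (0.29) and without a filter. Got1 was also not called with the replicate number as a block in the fit.

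Among 11 tested genes of serine use 2 rose and 2 fell, all of the Serinc family of membrane proteins, once named as serine incorporators (2 higher and 3 lower at an unadjusted p under 0.05, 2 and 2 by voom). Serinc2 averaged 58.8 ± 3.29 FPKM in NAC and 44.8 ± 4.61 FPKM in Control (0.39, limma adjusted p = 0.0319), and Serinc5 20.2 ± 0.590 FPKM in NAC and 16.2 ± 0.152 FPKM in Control (0.30, limma adjusted p = 0.0108). Serinc1 averaged 146 ± 5.05 FPKM in NAC and 176 ± 7.31 FPKM in Control (-0.26, limma adjusted p = 0.0185), and Serinc3 158 ± 5.50 FPKM in NAC and 179 ± 5.44 FPKM in Control (-0.18, limma adjusted p = 0.0446). The calls were lost without NAC 2 for Serinc5 (0.28), without any 1 library other than Control 2 for Serinc1 (-0.28 to -0.23) and Serinc2 (0.34 to 0.43), and without any 1 of the 6 for Serinc3 (-0.20 to -0.15). Scaled to library totals Serinc2 (0.22) and Serinc5 (0.14) were not called, nor were Serinc2 and Serinc3 without a filter. With the replicate number as a block in the fit, Serinc1, Serinc2 and Serinc3 were not called.

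The last list held Atf4, the kinases that act upstream of it, and partners, targets and other stress genes. Of its 18 tested genes 1 rose and 1 fell (2 higher and 6 lower at an unadjusted p under 0.05, 1 and 3 by voom). At an unadjusted p under 0.05, 1836 of all 12733 tested genes were higher and 1519 lower, and voom called 1059 and 517. The NAC libraries all lay above the Control libraries for 4 of the 18 and below for 6, separations seen in 16.7% and 15.9% of all tested genes. Atf4 itself had 144, 139 and 151 FPKM in NAC, against 152, 165 and 156 FPKM in Control, with all NAC libraries below all Control libraries, a separation seen in 15.9% of all tested genes. Its log2 fold change was -0.13 ± 0.0468 (SE, 95% interval -0.24 to -0.015), and it was not called (limma adjusted p = 0.146). Ddit4, a stress-induced inhibitor of mTORC1, averaged 74.6 ± 9.33 FPKM in NAC and 55.0 ± 3.40 FPKM in Control (0.43, limma adjusted p = 0.0373). Atf5, a transcription factor related to ATF4, averaged 85.6 ± 7.13 FPKM in NAC and 106 ± 6.09 FPKM in Control (-0.30, limma adjusted p = 0.0473). Ddit3 and Trib3, known targets of ATF4, averaged 27.7 ± 1.28 and 3.35 ± 0.540 FPKM in NAC, and 26.8 ± 2.00 and 3.39 ± 0.425 FPKM in Control (limma adjusted p = 0.677 and 0.960; both chosen after their values were seen). The Ddit4 call was lost without any 1 of the 6 libraries (0.33 to 0.49) and with library totals (0.26), and that of Atf5 without any 1 library other than Control 2 (-0.34 to -0.23). Both calls were also lost without a filter on low values and with the replicate number as a block in the fit.

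**Figure D4:**
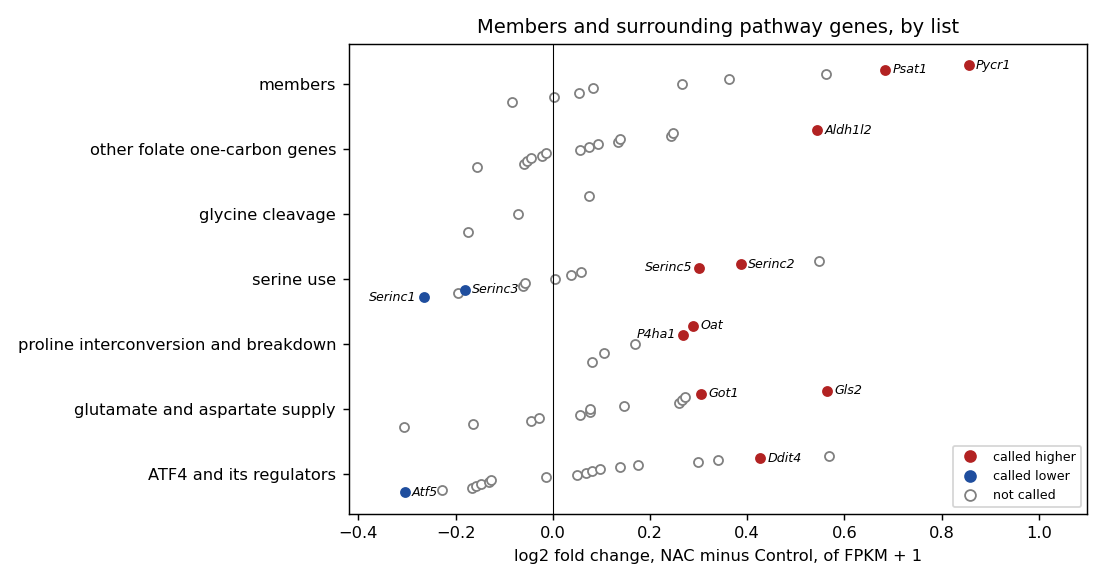
Log2 fold change (NAC minus Control, horizontal axis) of the 9 enzymes and of the 64 tested pathway genes, by list, with called genes filled and named. Psat1 and Pycr1 lie farthest to the right among called genes, followed by Gls2 (0.57) and Aldh1l2 (0.54).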

How the data were processed

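RNA was sequenced from 6 libraries, 3 NAC and 3 Control. A Qiagen RNeasy kit gave total RNA and a SMARTER mRNA-Seq kit the libraries, per the labels' protocols. A single table of FPKM values and gene lengths was deposited by the authors. The sources used here do not give the aligner, the counter, the strand setting or the treatment of reads shared by paralogs. Per the submitters' processing notes the builds were GRCm38 and mm10, both of mouse, while 32545 of the table's 33300 genes carry rat Ensembl identifiers; the coordinates printed are the table's own, of a build not named here. Columns N1 to N3 stand for Control 1 to 3.

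Reads were recovered from the deposited FPKM and gene length, since within each library the products are integer multiples of a smallest value (100% of values, tolerance 0.01). Values were tested as log2(FPKM + 1) with limma 3.58.1 in R 4.3.3 (trend option, no term but group, two-sided tests) for the 12733 genes that averaged 1 FPKM or more, adjusted by Benjamini-Hochberg, on a procedure tested on simulated data. The method behind the authors' totals, which were 0.916 ± 0.00812 of the recovered reads in NAC and 1.03 ± 0.0122 in Control (SD, n = 3 each), is not given. Replicates of a group all differed by more than sampling noise and counted as 1 sample each. Intervals on reads cover counting error only.

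Alternatives were no filter, a filter at a mean of 5 FPKM, a pseudocount of 0.1, library totals, quantile normalization, limma voom on the recovered reads with TMM, the replicate number as a block, and leaving out each library. The members, lists and motifs were chosen with earlier results of these data known. Named were all members, and up to 4 called genes per list with the lowest adjusted p, or the 2 most abundant where none was called. Also given were the 3 closest profiles to the member with the lowest adjusted p, sought only among genes that carry a name other than a placeholder. Isozyme shares were compared by exact permutation tests with scipy 1.17.1. Of the 3 shares tested, 1 is not reported here. Of 74 pathway names 1 was found through an older name and 2 had no matched row.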

Additional observations from a re-analysis of the deposited data

How the results depend on the processing

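Psat1 was called under all 12 alternatives that tested it and Pycr1 under 11 of 13. Leaving out 1 library gave 1 to 3 enzymes called higher and 0 lower, 264 to 859 genes called higher and 51 to 347 lower over the whole table, and 2 to 10 pathway genes higher and 0 to 2 lower. At a mean FPKM of at least 5, where Psat1 was not tested, 1 enzyme was called higher, and 5 pathway genes lower. Of all genes tested there 8.88% were higher and 4.65% lower. Scaled to library totals 467 genes were called higher and 3722 lower (11.1% of calls higher, against 69.1% as deposited), with 2 pathway genes higher and 17 lower. That scaling turned Shmt1 to -0.13, Shmt2 to -0.087, Asns to -0.12 and Gcsh to -0.087, while the enzymes' median was 0.10 beside -0.16 for all genes. Quantile normalization gave 58.2% of calls higher, with 5 pathway genes higher and 5 lower, and voom gave 5 lower. Of all tested genes quantile normalization called 4.45% higher and 3.20% lower, and voom called 4.06% lower. Without a filter 207 genes and 1 pathway gene were lower. Leaving out 1 library gave Psph -0.15 (without Control 3) to 0.0033 (Control 1), Shmt1 -0.13 (Control 3) to 0.11 (Control 2), with -0.054 without NAC 2, and Gcsh -0.038 (Control 3) to 0.16 (Control 2). None of these reversed values was called. The library totals setting multiplied all values of a library by a single factor, on average 0.916 in NAC and 1.03 in Control. By construction it lowered NAC relative to Control for every gene. The cause of the other changes was not tested.

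Replicate numbers are shared by both groups, and the labels do not say whether they mark pairs. Over all tested genes same-numbered libraries had correlations of their deviations of 0.063, 0.059 and -0.050, and differently numbered ones -0.113 to 0.065. These values describe all genes together and cannot decide on pairing for single genes. Nupr1, given below, was highest in replicate 1 of both groups, and its cause was not tested. With the replicate block 466 genes were higher and 110 lower (80.9% of calls higher), and 0 pathway genes were lower, 2 enzymes staying called. Serinc1, Serinc2, Serinc3, Got1, Ddit4 and Atf5 were not called with the block (adjusted p 0.0517 to 0.113). At these depths 1 read was worth 0.0584 to 0.0680 FPKM at the median gene length. At the mean reads of a group, the levels of Aldh18a1, Psat1, Psph and Shmt1 carry a counting error of 7.77 to 13.8%. It is larger in the single low libraries of Aldh18a1, with 28 to 31 reads.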

Other observations

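Prodh, which breaks down proline in mitochondria, lay under the tested level on average. It had 1.26, 1.39 and 1.05 FPKM in NAC, against 0.559, 0.638 and 0.554 FPKM in Control, and the groups did not overlap. In the fit without a filter its log2 fold change was 0.49 ± 0.088 (SE, limma adjusted p = 0.0435 over 19944 genes). It was chosen after its values were seen.

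Cth and Cbs encode the enzymes that pass the sulfur of homocysteine to serine, which forms cysteine. Cth had 4.41, 6.11 and 9.51 FPKM in NAC, against 3.31, 4.02 and 4.98 FPKM in Control, a wide spread within NAC with the groups overlapping (limma adjusted p = 0.211). Cbs had at most 1 read in each NAC library and at most 3 reads in each Control library. Nupr1, a stress-induced chromatin protein, had 158, 16.7 and 14.6 FPKM in NAC, against 89.1, 13.3 and 9.48 FPKM in Control, so that replicate 1 stood far above the others in both groups. These genes were chosen after their values were seen.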
